A study of Mus musculus with 2 samples.

Results

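The cells described here are neutrophils from mouse MB49 tumours that carried transcripts of Inhba, P4ha1, Nos2, Atp6v0d2 or Gpnmb, 202 cells of the 15259 that passed the filters and of 730 neutrophils. MB49 is a mouse bladder cancer line. Measured values chose them. A neutrophil had at least 3 UMIs (unique molecular identifiers, one per captured transcript) summed over S100a8, S100a9, Csf3r, Retnlg, G0s2 and Cxcr2, making up at least 0.3% of its UMIs, with at most 1 C1q and 1 Col1a1 UMI and no Cd3 UMI. Of these, the cells were selected on at least 1 UMI summed over the 5 genes named first, and on at most 2 UMIs summed over the interferon-induced genes Ifit1, Ifit2, Ifit3 and Rsad2. They are called Inhba/P4ha1 neutrophils below. The levels of those genes are therefore a description of the selection and not a finding.

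Live CD45+ cells, that is leukocytes, were sorted from the tumours and profiled with BD Rhapsody, a microwell method that tags the 3' end of each transcript. The hosts of the tumours were chimeras, females that after lethal irradiation received marrow from male donors, either wild type or Lcn2-KO, a design meant to remove Lcn2 from myeloid cells and to leave it in the host's other cells. Irradiation and marrow transfer were shared by both groups, and the sex label is female for both. There was 1 library per genotype label, wt and Lcn2-ko (the Lcn2-ko-labelled library below), and the labels used here give no age, strain, number of animals or pooling, nor which part of Lcn2 was deleted. The stated question was what Lcn2 contributes to the diversity and function of neutrophils. With 1 library per label no difference could be tested, cells are not replicates, and every 95% interval below covers counting error only.

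Neutrophils are short-lived granulocytes that leave the marrow with preformed granules and, inside a tumour, can stay longer and change their transcripts. Tumour tissue is often low in oxygen, and in low oxygen hypoxia-inducible factors bind short DNA sites holding the core ACGTG and switch on glucose transporters, glycolytic enzymes, mitophagy receptors and collagen-modifying enzymes. P4ha1, the catalytic subunit of collagen prolyl 4-hydroxylase, is a gene of that kind. Inhba encodes the subunit of activin A, a ligand of the TGF-beta family. Nos2 is the inducible nitric oxide synthase, Atp6v0d2 a subunit of the lysosomal proton pump known from osteoclasts and macrophages, and Gpnmb a membrane glycoprotein of lysosome-rich phagocytes.

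The wt library held 7974 barcodes with 42069099 UMIs, and the Lcn2-ko-labelled library held 7788 barcodes with 40959725 UMIs. Only 4 barcodes occurred in both, none of them among the Inhba/P4ha1 neutrophils. The population comprised 126 wt cells with 191720 UMIs and 76 cells of the Lcn2-ko-labelled library with 95670 UMIs, and the median depth was 1279.5 and 1169 UMIs per cell. Marker-negative neutrophils, the comparison used most below, met the same neutrophil and interferon limits with no UMI of the 5 genes. There were 177 and 124 of them, at median depths of 1207 and 1133.5 UMIs. A further 154 and 73 neutrophils had at least 3 UMIs of the interferon genes and are called interferon-high, and 78 and 44 of these also carried a UMI of the 5 genes.

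Lcn2, the iron-siderophore-binding lipocalin whose removal defines the design, was detected in both libraries. Among Inhba/P4ha1 neutrophils it reached 203 CPM (counts scaled to 1000000 UMIs; 95% interval 145 to 278, 39 UMIs from 18 cells) in wt. In the Lcn2-ko-labelled library it reached 136 CPM (72.4 to 232, 13 UMIs from 9 cells). The log2 ratio was -0.58 (-1.61 to 0.35), so the libraries did not differ beyond counting error in these cells. Marker-negative neutrophils had 257 CPM in wt and 344 CPM in the Lcn2-ko-labelled library, where 1 cell held 23 of 51 UMIs, and T cells had 1.74 and 3.54 CPM. Interferon-high neutrophils had 237 CPM (183 to 301) in wt and 85.0 CPM (38.8 to 161) in the Lcn2-ko-labelled library, with intervals that were apart. The gene lies at chr2:32384633-32388252 on the minus strand of GRCm38. A 3' tag outside the deleted part would still be counted, so these values check nothing about the label, and directions are given below for the Lcn2-ko-labelled library.

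Inhba/P4ha1 neutrophils made up a similar share of neutrophils in both libraries. The share was 27.6% (23.5 to 31.9, Clopper-Pearson interval; 126 of 457) in wt and 27.8% (22.6 to 33.6; 76 of 273) in the Lcn2-ko-labelled library. The difference was 0.268 points (Newcombe interval -6.29 to 7.09), which leaves room for a difference of several points either way. Of all cells they made up 1.63% (1.36 to 1.94) and 1.01% (0.794 to 1.26), a difference of -0.627 points (-0.995 to -0.265). Neutrophils as a whole differed in the same direction, at 5.93% and 3.62% of cells. Sorting on CD45 and the digestion can set such shares, and their part was not tested.

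The selection on a single UMI depends on depth. The 5 genes were also counted with every cell thinned to 800 UMIs, leaving out shallower cells. The neutrophil, C1q, Cd3, Col1a1 and interferon limits still used all UMIs. By this count 21.3% (86 of 403) and 20.4% (45 of 221) of neutrophils met the rule. The share of neutrophils with a UMI of the 5 genes was 44.6% and 44.0% before thinning, at median depths of 1313 and 1170 UMIs, and 34.7% and 35.3% after it. T cells, taken for comparison, had such a UMI in 37.2% and 38.8% of cells at median depths of 2818.5 and 2931 UMIs, and in 13.8% and 13.3% after thinning. At equal depth neutrophils were thus above T cells in both libraries. Single T cells held up to 91 UMIs of Inhba and 131 of Nos2, and whether the T cell level is background was not tested. C1q macrophages stood between them at 23.9% and 27.9% after thinning. Requiring at least 2 UMIs left 16.8% and 11.7% of neutrophils, a difference of -5.13 points (-10.1 to 0.251).

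Inhba was the most abundant of the 5 selecting genes. It reached 1476 CPM (1309 to 1658; 283 UMIs from 75 cells) in wt and 1777 CPM (1520 to 2065; 170 UMIs from 37 cells) in the Lcn2-ko-labelled library, against 85.4 and 79.9 CPM in T cells. It lies at chr13:16011851-16031621 of GRCm38, on the plus strand. P4ha1, at chr10:59323296-59373304 on the plus strand, reached 662 CPM (552 to 788; 127 UMIs from 58 cells) and 794 CPM (626 to 994; 76 UMIs from 32 cells), against 137 and 124 CPM in T cells. These genes therefore supplied most of the selecting UMIs in both libraries.

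Nos2, at chr11:78920787-78960254 on the plus strand, reached 188 CPM (132 to 260; 36 UMIs) and 272 CPM (178 to 398; 26 UMIs). T cells had 73.6 and 106 CPM and C1q macrophages 114 and 240 CPM. Atp6v0d2, at chr4:19876841-19922605 on the minus strand, reached 104 CPM (63.7 to 161; 20 UMIs) and 94.1 CPM (43.0 to 179; 9 UMIs), against 3.10 and 2.36 CPM in T cells. Gpnmb, at chr6:49036546-49070929 on the plus strand, reached 104 CPM (63.7 to 161; 20 UMIs) and 199 CPM (120 to 310; 19 UMIs), each from 8 cells. All 5 are protein-coding, and all 5 intervals of the ratio between the libraries included 0 on the log2 scale, from -0.15 for Atp6v0d2 (-1.47 to 1.05) to 0.93 for Gpnmb (-0.06 to 1.91). The cells of both libraries were selected on these UMIs, so the ratios describe the selected cells and do not show that the labels are alike.

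**Figure D1:**
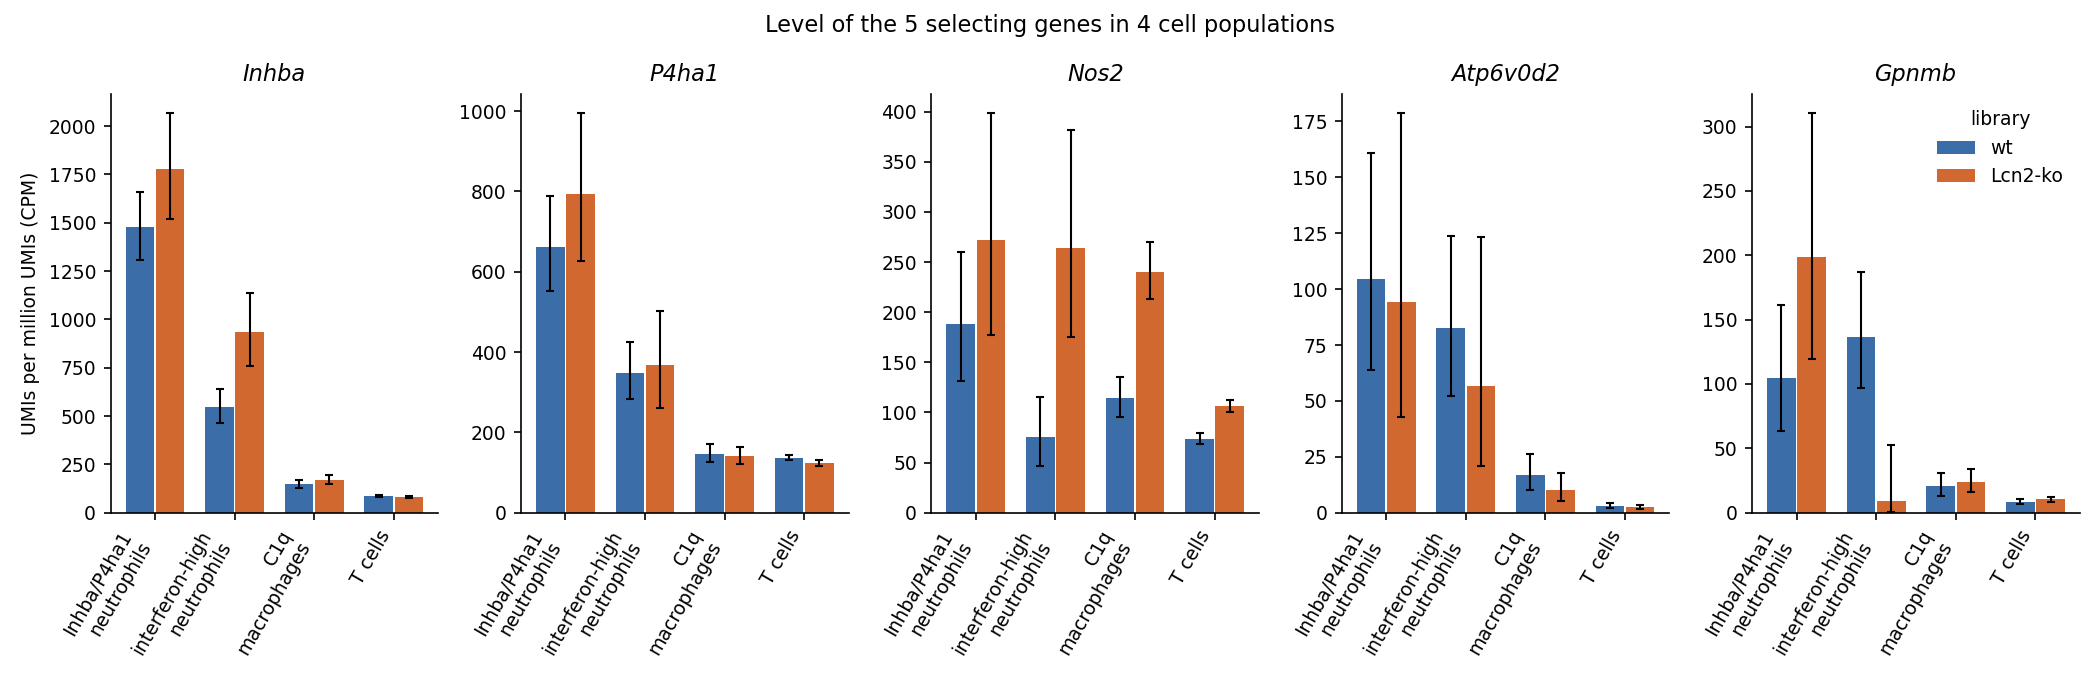
Bars give the CPM of each of the 5 selecting genes in 4 cell populations, blue for the wt library and orange for the Lcn2-ko-labelled library, and lines give exact 95% Poisson intervals (counting error only). Marker-negative neutrophils are at 0 by selection and are not drawn. Inhba stood at 1476 and 1777 CPM in Inhba/P4ha1 neutrophils and between 79.9 and 171 CPM in C1q macrophages and T cells.

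The 5 genes seldom occurred together in 1 cell. A single one of them was detected in 83 of 126 wt cells and in 57 of 76 cells of the Lcn2-ko-labelled library, and no cell held all 5. Inhba alone was found in 43 and 21 cells, P4ha1 alone in 28 and 19, and both in 22 and 10. Of the cells with Nos2, 9 wt cells also held Inhba and 9 held P4ha1, and in the Lcn2-ko-labelled library 7 and 5 did. Cells selected on exactly 1 UMI numbered 49 and 44. At the other end, the 10 cells with the most selecting UMIs accounted for 203 of 486 such UMIs in wt, and for 188 of 300 in the Lcn2-ko-labelled library, with a maximum of 49 and 53 UMIs in 1 cell. These counts describe the selection, and at this depth a transcript that was not detected may still be present.

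At the limit of the selecting genes, cells just inside and just outside had similar depth. The 49 wt cells with 1 selecting UMI had a median depth of 1123 UMIs, and the 44 of the Lcn2-ko-labelled library 1025.5 UMIs. Neutrophil-gene UMIs made up a median of 1.28% and 1.55% of the UMIs of these cells, and 1.35% and 1.33% in marker-negative neutrophils. At the neutrophil limit the cells outside were deeper. Those left out because the neutrophil share was under 0.3% numbered 15 and 12, with medians of 2581 and 2327.5 UMIs per cell, and Cd3 UMIs left out another 18 and 13. Of the cells kept, 9 in each library had 2 interferon UMIs, and 6 and 4 with 3 interferon UMIs were left out.

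The marrow in these chimeras came from male donors and the hosts were female. A Y-linked UMI with no Xist UMI was seen in 36 of 126 wt cells and 20 of 76 cells of the Lcn2-ko-labelled library. Xist without a Y-linked UMI was seen in 2 and 0 cells, and the remaining 88 and 56 cells had neither. Where either could be read, the transcripts were thus mostly those of the male donors' sex.

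Compared with marker-negative neutrophils, genes of low oxygen and glycolysis were higher in Inhba/P4ha1 neutrophils of both libraries. In this list 10 of the 31 genes measured in both libraries were at least 1.5-fold higher in both, namely Hilpda, Bnip3, Bnip3l, Pgam1, Ldha, Slc2a1, Pfkfb3, Pfkfb4, Ndrg1 and Mif, and 1 was lower, Slc2a3. Over all 3826 genes measured in both, 7.58% were higher by that measure in both and 7.11% lower. The selection used this contrast and P4ha1 is itself a gene of this kind, so the counts describe the selected cells; P4ha1 is not in the list. Taking the wt library alone, 18 of 33 list genes were higher and 1 lower, where 28.2% of all genes were higher and 20% lower. In the Lcn2-ko-labelled library alone, 12 of 31 were higher and 3 lower, where 23.1% of all genes were higher and 29.6% lower. The list's median log2 ratio was 0.64 in wt and 0.42 in the Lcn2-ko-labelled library, beside 0.10 and -0.11 over all genes measured. With P4ha1 taken out of the selection the medians were 0.43 and 0.34. The cells with P4ha1 alone were then counted among the marker-negative neutrophils.

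Hilpda, a lipid-droplet protein that restrains fat breakdown, was the most abundant gene of the list. It stood at 3114 CPM in Inhba/P4ha1 and 1501 CPM in marker-negative neutrophils of the wt library, and at 3334 and 1358 CPM in the Lcn2-ko-labelled library. The log2 ratio was 1.05 (0.86 to 1.25) in wt and 1.30 (1.04 to 1.56) in the Lcn2-ko-labelled library. Both libraries therefore gave a ratio of about the same size, with neither interval reaching 0.

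The mitophagy receptors Bnip3 and Bnip3l, which mark mitochondria for removal, were higher too. Bnip3 stood at 595 against 220 CPM in wt, and at 408 against 250 CPM in the Lcn2-ko-labelled library. Its log2 ratio was 1.43 (0.93 to 1.95) and 0.71 (0.02 to 1.40). Bnip3l stood at 360 against 165 CPM and at 408 against 142 CPM, with log2 ratios of 1.12 (0.52 to 1.75) and 1.52 (0.72 to 2.36). All 4 intervals lay above 0.

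Along glycolysis, the glucose transporter Slc2a1 stood at 1419 against 877 CPM in wt and at 1087 against 669 CPM in the Lcn2-ko-labelled library, with log2 ratios of 0.69 (0.42 to 0.97) and 0.70 (0.29 to 1.11). Pgam1, phosphoglycerate mutase, stood at 829 against 386 CPM and at 868 against 412 CPM, with log2 ratios of 1.11 (0.71 to 1.5) and 1.07 (0.58 to 1.58). Ldha, which turns pyruvate into lactate, stood at 876 against 578 CPM and at 878 against 547 CPM, with log2 ratios of 0.60 (0.26 to 0.94) and 0.68 (0.22 to 1.14). Slc2a1, Pgam1 and Ldha were thus all higher in both libraries.

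Not every enzyme followed in both libraries. Gapdh had log2 ratios of 0.72 (0.44 to 1.00) in wt and 0.31 (-0.04 to 0.66) in the Lcn2-ko-labelled library. Pkm, pyruvate kinase, had 0.74 (0.40 to 1.08) and -0.02 (-0.45 to 0.41), and Eno1, enolase, 0.40 (-0.11 to 0.92) and 1.20 (0.51 to 1.91). The regulators Pfkfb3 and Pfkfb4, which set the level of a fructose bisphosphate that drives glycolysis, were both past 1.5-fold, but Pfkfb4 rested on 7 and 4 UMIs. Slc2a3, another glucose transporter, went the other way at -0.62 (-1.11 to -0.15) and -0.82 (-1.48 to -0.20). Transcripts of the hypoxia-inducible factor itself, and of its target Vegfa, stood close to 0, with Hif1a at 0.23 (-0.28 to 0.73) and 0.03 (-0.76 to 0.79) and Vegfa at 0.12 (-0.38 to 0.63) and 0.25 (-0.36 to 0.85).

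**Figure D2:**
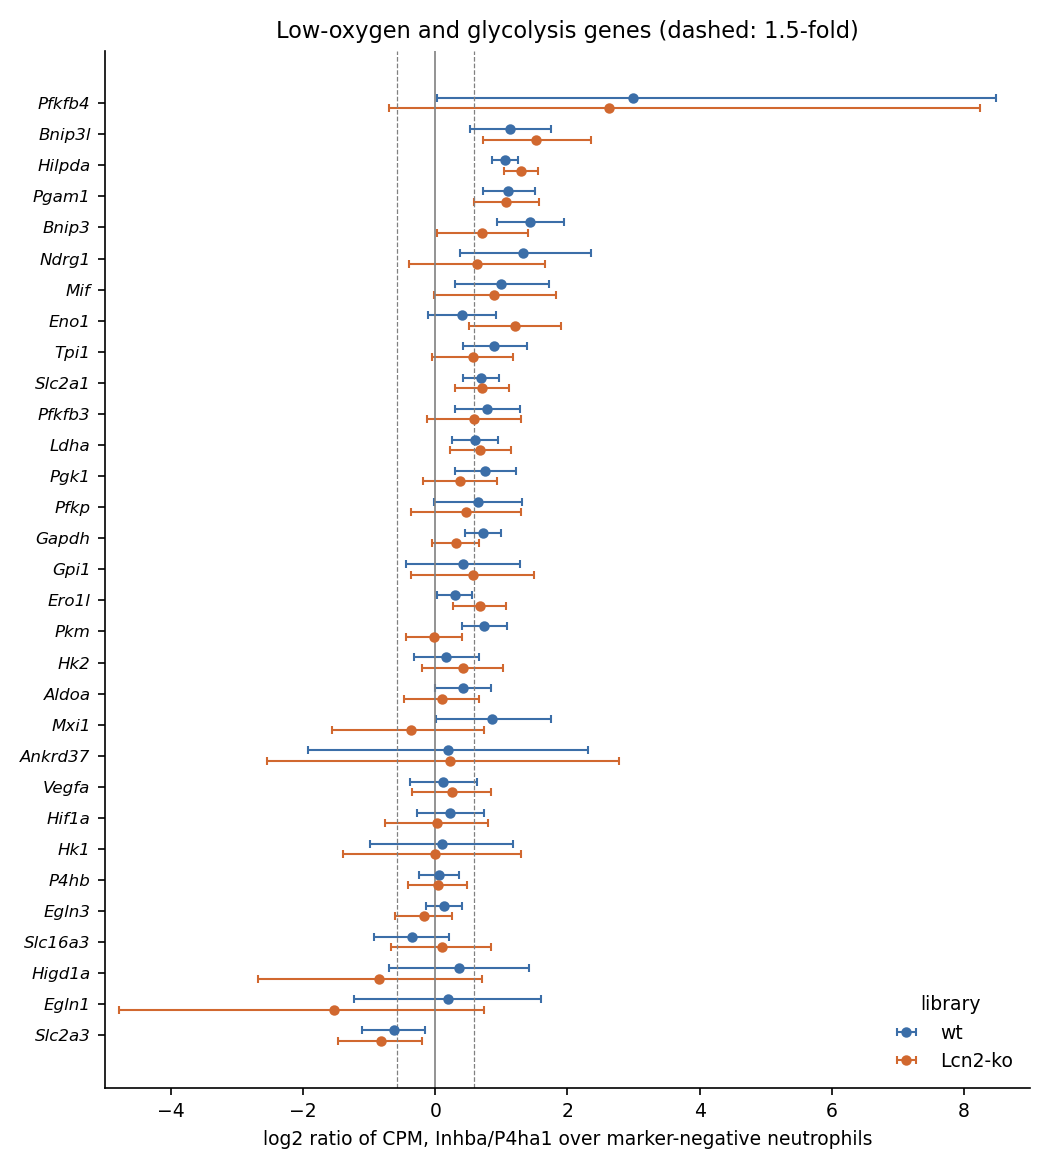
Each row is 1 gene of the low-oxygen and glycolysis list, each point the log2 ratio of CPM in Inhba/P4ha1 over marker-negative neutrophils, blue for wt and orange for the Lcn2-ko-labelled library, with exact conditional 95% intervals (counting error only) and dashed lines at 1.5-fold. Hilpda, Bnip3l and Pgam1 have ratios of 1.05 to 1.52 in both libraries and Slc2a3 lies left of 0, while Pfkfb4 has the widest intervals.

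The summed level of the list is given here by the number of selecting UMIs, as a description, since these UMIs chose the cells; the list shares no gene with the selection. In wt it was 12203 CPM (11744 to 12676) in cells with none, 15992 CPM (15063 to 16963) with 1 UMI, 19181 CPM (17918 to 20509) with 2 and 19874 CPM (18896 to 20889) with 3 or more. In the Lcn2-ko-labelled library it was 12090, 15413, 18921 and 18928 CPM over the same classes, with the first interval ending at 12664 and the second beginning at 14306. The level was lowest in cells with none in both libraries. Median depth was 1207, 1123, 1329 and 1304 UMIs in wt and 1133.5, 1025.5, 1120 and 1429 UMIs in the Lcn2-ko-labelled library, and its part was not tested. Split by the gene detected, the summed level in wt was 17444 CPM in cells with Inhba, 21182 CPM with P4ha1, 19694 CPM with Nos2, 21192 CPM with Atp6v0d2 and 24419 CPM with Gpnmb. In the Lcn2-ko-labelled library it was 17707, 17956, 15375, 25108 and 13308 CPM in the same order, so the order of the 5 genes was not shared; the cells with Gpnmb numbered 8 in each library.

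**Figure D3:**
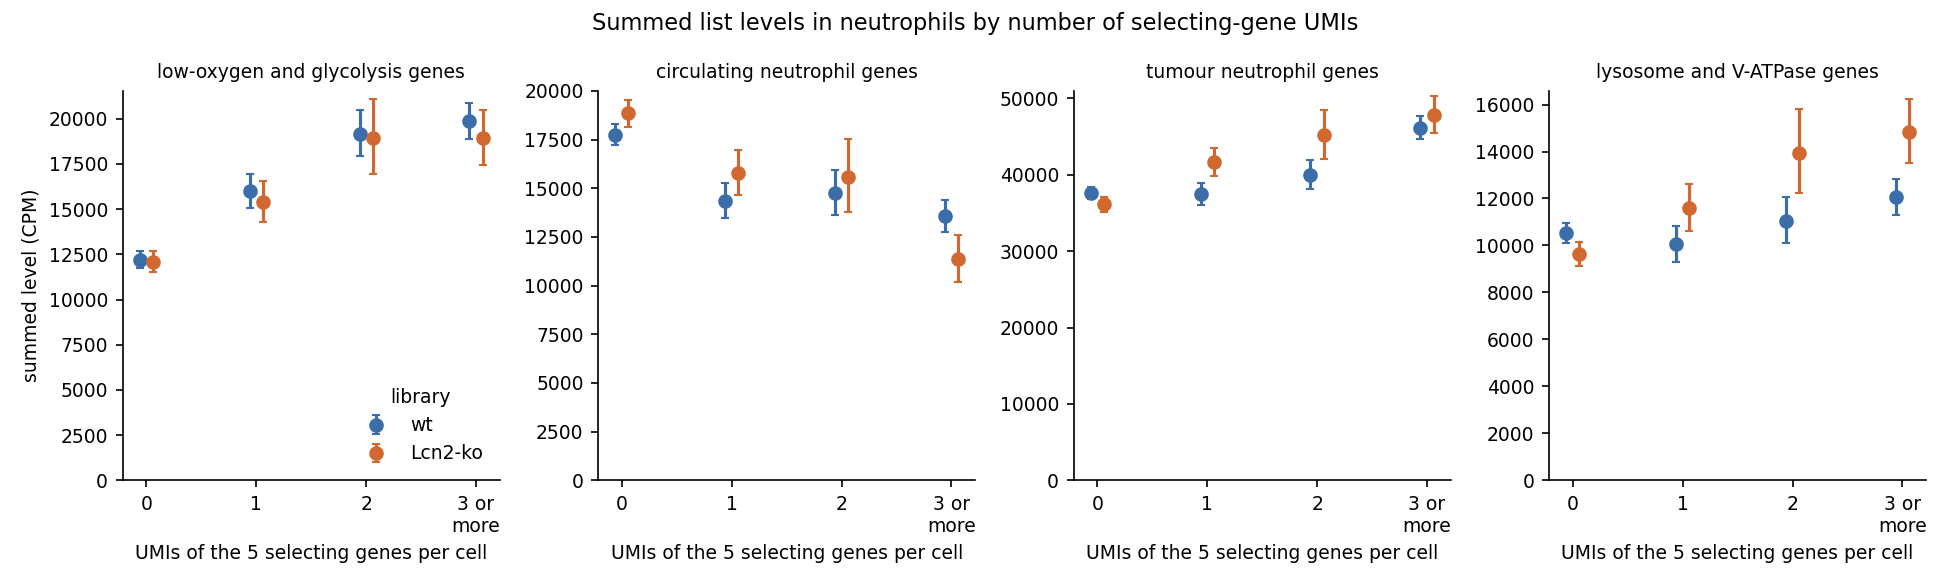
Points give the summed CPM of 4 gene lists in neutrophils grouped by their number of UMIs of the 5 selecting genes (0 being marker-negative), blue for wt and orange for the Lcn2-ko-labelled library, with exact 95% Poisson intervals (counting error only). The low-oxygen and glycolysis list goes from 12203 to 19874 CPM in wt and from 12090 to 18928 CPM in the Lcn2-ko-labelled library, while the circulating neutrophil list goes from 17756 to 13574 CPM and from 18844 to 11351 CPM.

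Interferon-high neutrophils were closer in these genes. Their summed level was 16773 CPM (16296 to 17261) in wt and 17066 CPM (16289 to 17872) in the Lcn2-ko-labelled library, against 18313 CPM (17712 to 18929) and 17215 CPM (16394 to 18067) in Inhba/P4ha1 neutrophils. The median log2 ratio of the list's genes between these populations was 0.16 and 0.11, beside 0.12 and 0.15 over all genes measured. Hilpda stood at 3108 and 4210 CPM in interferon-high neutrophils. The summed levels of Inhba/P4ha1 and interferon-high neutrophils had intervals that were apart in wt and overlapped in the Lcn2-ko-labelled library. Of the interferon-high cells 78 of 154 and 44 of 73 carried the selecting transcripts as well.

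The promoters of these genes were searched for the core ACGTG on both strands, in RefSeq windows of GRCm38.p6 that run from 250 bases before to 50 bases after each start site. Of all 32851 windows 19.6% held it, and 26 of the 44 windows (59.1%) matched to 31 of the 35 genes of the low-oxygen and glycolysis list did. Of the 5 selecting genes 3 had a window, and P4ha1 alone of Inhba, P4ha1 and Gpnmb held the core. The longer M-box TCACGTG, which contains the core, was in 3.77% of all windows and the AP-1 site TGANTCA in 7.81%. Gpnmb held an AP-1 match beginning at base 8 after the start site and no core. The 120 bases before the start site, for Ldha that of 1 of its 2 windows, are shown 5' to 3' on the gene's strand for P4ha1 and for 4 list genes higher in both libraries, with Inhba, which lacks the core, for contrast. Capitals mark the core, read as ACGTG, as its reverse complement CACGT, or as both overlapping in CACGTG.
P4ha1: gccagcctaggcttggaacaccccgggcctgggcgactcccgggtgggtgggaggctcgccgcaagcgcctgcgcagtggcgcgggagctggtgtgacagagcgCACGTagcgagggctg
Ldha: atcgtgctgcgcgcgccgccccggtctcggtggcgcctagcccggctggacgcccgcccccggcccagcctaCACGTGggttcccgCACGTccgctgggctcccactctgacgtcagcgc
Bnip3: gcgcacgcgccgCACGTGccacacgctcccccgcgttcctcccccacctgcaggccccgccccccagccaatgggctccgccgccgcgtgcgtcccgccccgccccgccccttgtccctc
Slc2a1: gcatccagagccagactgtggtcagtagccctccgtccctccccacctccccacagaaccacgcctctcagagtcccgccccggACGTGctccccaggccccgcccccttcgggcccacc
Pgam1: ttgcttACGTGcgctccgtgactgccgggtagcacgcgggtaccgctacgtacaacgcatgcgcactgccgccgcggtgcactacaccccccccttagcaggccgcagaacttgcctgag
Inhba: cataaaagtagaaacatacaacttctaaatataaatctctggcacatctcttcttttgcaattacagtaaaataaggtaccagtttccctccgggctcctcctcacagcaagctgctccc
The stretches lie at chr10:59323176-59323295 for P4ha1, chr7:46845684-46845803 for Ldha, chr7:138909507-138909626 on the minus strand for Bnip3, chr4:119108625-119108744 for Slc2a1, chr19:41911751-41911870 for Pgam1 and chr13:16011731-16011850 for Inhba. The core began at base -16 in P4ha1, at -36 in Slc2a1 and at -114 in Pgam1, and Ldha held 2 runs of it in this stretch. Not every list gene higher in both libraries held it. Pfkfb4 had no core in its window, Mif had none in its 120 bases, and a further window of Hilpda had none. A match describes the letters in this window and says nothing of a factor bound there in these cells.

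Across all genes, 11 of 1052 (1.05%) were at least 2-fold higher in Inhba/P4ha1 than in marker-negative neutrophils of both libraries, and 1 (0.0951%) was at least 2-fold lower in both. These were genes with at least 50 CPM in either population and 30 UMIs over both, in each library. Beside Hilpda, Bnip3l and Pgam1, the higher ones were F10, Arfgef2, Ralb, Ifi204, Fn1, Cd74, H2-Ab1 and H2-Aa, and the lower one was Dstn. When P4ha1 was taken out of the selection, F10 alone of the 11 was still 2-fold higher in both libraries. Iqsec1, which activates the small GTPase Arf6, came next at 1.04 and 0.98 on the log2 scale.

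F10, coagulation factor X, stood at 250 against 106 CPM in wt and at 334 against 122 CPM in the Lcn2-ko-labelled library. Its log2 ratio was 1.25 (0.50 to 2.03) and 1.46 (0.58 to 2.38), and 23 and 12 cells carried it. Arfgef2, an exchange factor for Arf GTPases of the Golgi, had log2 ratios of 1.14 (0.28 to 2.05) and 1.44 (0.50 to 2.42). F10 kept a log2 ratio between 0.95 and 1.87 over the alternatives in each library, Bnip3l between 0.82 and 2.06 and Hilpda between 0.84 and 1.94. The alternatives on the CPM limit and on UMIs of list genes could not change these ratios. Ralb, a Ras-like GTPase, had 1.24 (0.23 to 2.32) and 1.07 (-0.00 to 2.18). Ifi204, an interferon-inducible DNA sensor, had 1.10 (0.40 to 1.83) and 1.08 (0.17 to 2.02), with 51 and 26 UMIs. Against interferon-high neutrophils, which were selected on interferon-induced genes, Ifi204 was lower, with log2 ratios of -1.22 and -0.88. Its direction there therefore describes the selection. In that comparison Hilpda had 0.00 and -0.34, Pgam1 -0.09 and -0.02, Arfgef2 -0.09 and 1.25, and F10 0.34 and 0.24. Bnip3l had 0.98 and 1.73, Ralb 0.90 and 0.81, and Fn1 3.14 and 1.23. Cd74 had 0.43 and 1.34, H2-Ab1 0.41 and 1.69, and H2-Aa 0.63 and 1.64.

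The MHC class II genes and Fn1 were higher in both libraries but not under every selection. H2-Ab1 stood at 981 against 418 CPM in wt and at 1610 against 473 CPM in the Lcn2-ko-labelled library, Cd74 at 908 against 381 and at 1077 against 351 CPM, and Fn1, fibronectin, at 412 against 115 and at 376 against 81.1 CPM. C1q macrophages had 9269 and 9561 CPM of H2-Ab1. Of the UMIs of the dendritic cell list, to which H2-Ab1 and Cd74 belong, 1 wt cell held 122 of 406, and 1 cell of the Lcn2-ko-labelled library held 162 of 280. With only the 89 and 54 cells free of C1q, Csf1r, Adgre1, Mrc1 and Apoe UMIs, and marker-negative neutrophils limited likewise, Cd74 had log2 ratios of -0.40 and -0.60. H2-Ab1 then stood at -0.11 in wt, and H2-Aa at -0.80. Fn1 stood at -1.03 in wt with at least 2 selecting UMIs, and at -0.69 without cells carrying MHC class II UMIs. In the former, cells with fewer selecting UMIs were the comparison, so it was no longer marker-negative neutrophils alone. Hilpda, Bnip3l and F10 were the 3 of the 11 genes that were still at least 2-fold higher in both libraries without those macrophage-gene cells.

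Some markers of other cell types were present. Of 17 macrophage and monocyte genes, 2 were at 0 in wt Inhba/P4ha1 neutrophils and 3 in those of the Lcn2-ko-labelled library, and the highest, Cd68, which neutrophils also carry, reached 282 and 334 CPM. The summed level of that list was 1074 and 1254 CPM, against 753 and 723 CPM in marker-negative neutrophils. Mrc1, a macrophage receptor, had 29 UMIs from 5 wt cells against 3 UMIs in marker-negative ones. Of 11 dendritic cell genes 1 and 7 were at 0. Their summed level was 2118 and 2927 CPM, mostly H2-Ab1 and Cd74, against 1033 and 1108 CPM in marker-negative neutrophils. Xcr1 had 1 and 0 UMIs and Clec9a 3 and 0 UMIs. Of 17 lymphocyte genes 5 and 11 were at 0, the 3 Cd3 genes by selection. The summed lymphocyte level was 443 CPM in wt, where 1 cell held 47 of 85 UMIs, against 184 CPM in marker-negative neutrophils, and 199 against 270 CPM in the Lcn2-ko-labelled library. Of the 9 lymphocyte genes measured in wt 8 were at least 1.5-fold higher and 1 lower, where 28.2% of all genes were higher and 20% lower. Of the 4 measured in the Lcn2-ko-labelled library 1 was higher and 2 lower, where 23.1% of all genes were higher and 29.6% lower. Of 10 mast cell, basophil and eosinophil genes 5 and 8 were at 0, with Cpa3, Mcpt8, Ms4a2 and Epx at 0 in both. Of 8 osteoclast genes 5 were at 0 in each library, Acp5, Dcstamp, Calcr and Tnfrsf11a in both, and the highest was Mmp9, a neutrophil granule protease. Of 10 tumour and stroma genes Col1a2 was at 0 in both, and the highest was S100a6, which leukocytes also carry, at 1857 and 1746 CPM. The part of transcripts from other cells in the results was not tested beyond the values given for cells without macrophage genes and without MHC class II UMIs.

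The lower side was weaker. Dstn, destrin, which severs actin filaments, stood at 83.5 against 170 CPM in wt and at 73.2 against 155 CPM in the Lcn2-ko-labelled library. Its log2 ratio was -1.02 (-1.97 to -0.14) and -1.09 (-2.55 to 0.18), from 16 and 7 UMIs. Next came Atp7a, a copper transporter, at -1.36 and -0.95, Il23a, the p19 subunit of interleukin-23, at -0.91 and -1.11, and Spata13 at -1.03 and -0.89. Wac, Oga, Aff4, Lpcat2, Adprh, Prr13, Plp2 and Anxa1 completed the 12 lowest, with weaker log2 ratios between -0.88 and -0.74. Lpcat2, an enzyme that makes platelet-activating factor, had -0.82 (-1.65 to -0.03) and -1.83 (-3.38 to -0.56). How many genes were 2-fold lower in both libraries depended on the selection, with 9 when Inhba was taken out of it and 0 when Atp6v0d2 was.

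**Figure D4:**
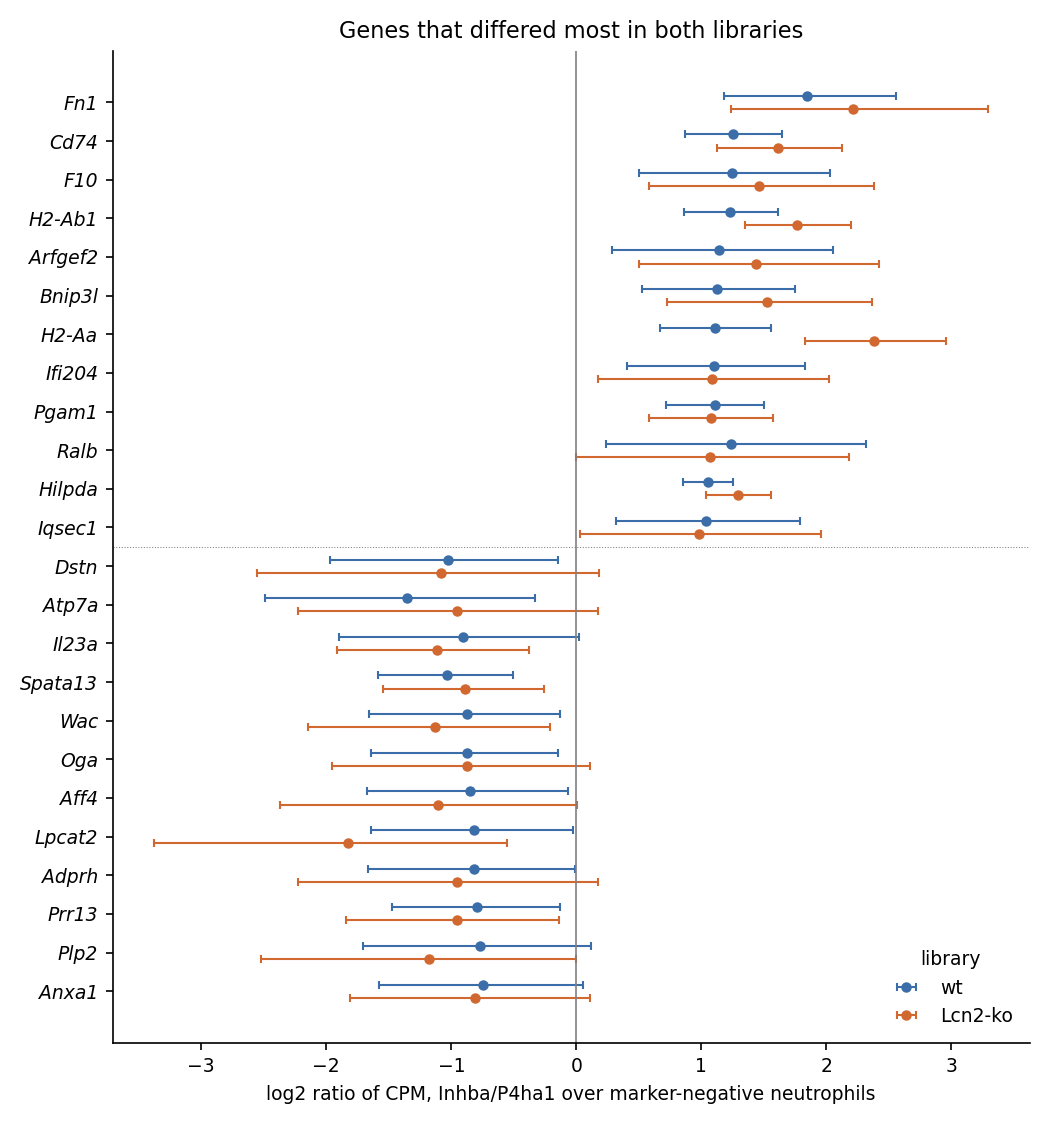
Points give log2 ratios of CPM in Inhba/P4ha1 over marker-negative neutrophils for the 12 highest and 12 lowest genes by the weaker of both libraries, blue for wt and orange for the Lcn2-ko-labelled library, with exact conditional 95% intervals (counting error only). Fn1 has ratios of 1.84 and 2.21, but its wt ratio is -1.03 for cells with at least 2 selecting UMIs over cells with fewer. The narrow intervals of Hilpda at 1.05 and 1.30 come from 597 and 319 UMIs.

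Genes of circulating mature neutrophils had a median log2 ratio of -0.43 in wt and -0.54 in the Lcn2-ko-labelled library, beside 0.10 and -0.11 over all genes. Of the 28 measured in wt 7 were at least 1.5-fold lower and 1 higher, where 20% of all genes were lower. Of the 26 measured in the Lcn2-ko-labelled library 11 were lower and 1 higher, where 29.6% of all genes were lower. Those lower in both were Cd177, Fpr1 and Mmp8, 3 of 26, where 7.11% of all genes were. Fpr1, a receptor for formylated peptides, stood at -0.72 (-1.31 to -0.15) and -1.62 (-2.61 to -0.75). S100a11 stood at -0.51 (-0.76 to -0.27) and -0.40 (-0.71 to -0.09). Cd24a, a surface glycoprotein, did not follow at 0.05 (-0.19 to 0.28) and 0.25 (-0.06 to 0.55). Summed over the list, the level was 14130 CPM in wt Inhba/P4ha1 neutrophils against 17756 CPM in marker-negative ones, and 14268 against 18844 CPM in the Lcn2-ko-labelled library. Interferon-high neutrophils had 14426 and 14178 CPM, within the intervals of Inhba/P4ha1 neutrophils.

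Secondary granule genes were lower, but on few cells. Of the 10 measured in both libraries 6 were at least 1.5-fold lower in both, Ltf, Camp, Ngp, Chil3, Mmp8 and Anxa1, where 7.11% of all genes were. Ngp, neutrophilic granule protein, had 1 and 0 UMIs in Inhba/P4ha1 neutrophils against 44 and 216 UMIs in marker-negative ones, and those came from 3 and 2 cells. Camp, the cathelicidin, had 0 and 0 UMIs against 8 and 69, from 1 and 2 cells, and Ltf, lactoferrin, 1 and 2 against 6 and 27, from 4 and 2 cells. Very few marker-negative cells thus carried these differences. Mmp8 and Anxa1 were spread over more cells, 16 and 12 for Mmp8 and 26 and 19 for Anxa1 among marker-negative neutrophils. Mmp8 had log2 ratios of -1.45 (-2.72 to -0.33) and -0.73 (-2.23 to 0.59). Without the cell holding the most UMIs of each gene, the list's median was -0.67 instead of -1.04 in wt, and -0.75 instead of -1.33 in the Lcn2-ko-labelled library.

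Genes known from tumour neutrophils did not move as a block. Of the 22 measured in both libraries, Spp1 and Lgals3 were at least 1.5-fold higher in both and Siglecf was lower, with 4 and 1 UMIs. Over all genes 7.58% were higher and 7.11% lower in both, so these counts were near the background. Spp1, osteopontin, stood at 866 against 376 CPM in wt and at 1275 against 716 CPM in the Lcn2-ko-labelled library, with log2 ratios of 1.20 (0.81 to 1.60) and 0.83 (0.45 to 1.22). Lgals3, galectin-3, had 0.77 (0.49 to 1.05) and 0.65 (0.34 to 0.95). Cd274, the checkpoint ligand PD-L1, stood at 1680 against 1134 CPM and at 1463 against 865 CPM, with 0.57 (0.32 to 0.81) and 0.76 (0.40 to 1.12). The chemokine Ccl3 was the list's most abundant gene and differed little, at 0.17 (0.08 to 0.27) and 0.18 (0.05 to 0.32). The list's median was 0.04 and 0.12.

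The inflammatory genes were the most abundant list, at 127238 and 129999 CPM in all, and most of them differed little. Cxcl2, a chemokine that draws neutrophils, stood at 38447 against 39271 CPM in wt and at 38257 against 40100 CPM in the Lcn2-ko-labelled library. Il1b stood at 17061 against 21079 and at 16013 against 22012 CPM, with log2 ratios of -0.31 (-0.37 to -0.24) and -0.46 (-0.55 to -0.37). Of the 27 genes of the list measured in both libraries 0 were 1.5-fold higher in both and 1, Il23a, was lower in both, and the medians were -0.04 and 0.11. Over all genes 7.58% were higher in both and 7.11% lower in both, and the medians were 0.10 in wt and -0.11 in the Lcn2-ko-labelled library. Tnfaip3, a brake on NF-kB, stood at 0.43 (0.25 to 0.60) and 0.50 (0.27 to 0.73). The chemokine Cxcl1 stood at 355 against 189 CPM in the Lcn2-ko-labelled library, a log2 ratio of 0.91, and was not 1.5-fold higher in wt. Inhba/P4ha1 neutrophils thus had about the Cxcl2 level of marker-negative cells with a lower Il1b in both libraries.

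Lysosomal genes gave different counts in the libraries. In the Lcn2-ko-labelled library 13 of 33 were at least 1.5-fold higher and 4 lower, where 23.1% of all genes were higher and 29.6% lower. In wt 4 of 34 were higher and 4 lower, where 28.2% of all genes were higher and 20% lower. Ctss and Npc1 were among those higher in both. Ctss, cathepsin S, had log2 ratios of 0.68 (0.23 to 1.15) in wt and 0.89 (0.33 to 1.45) in the Lcn2-ko-labelled library, and Ctsb, cathepsin B, 0.56 (0.29 to 0.83) and 1.05 (0.72 to 1.38). The proton pump subunit Atp6v1b2 had 0.28 (-0.26 to 0.82) and 1.01 (0.36 to 1.68), and Ctsz, cathepsin Z, -0.25 (-0.94 to 0.42) and 1.95 (1.02 to 2.96). The summed level was 11094 against 10528 CPM in wt and 13097 against 9618 CPM in the Lcn2-ko-labelled library, where macrophage genes summed to 1254 against 723 CPM. Whether the ratio differed between the libraries was not tested, with 1 library each.

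In the other lists few genes went the same way in both libraries, where 7.58% of all genes were at least 1.5-fold higher in both and 7.11% lower. The lipid genes Fabp5, Acsl1 and Nceh1 were at least 1.5-fold higher in both, 3 of 14, Fabp5 with log2 ratios of 2.10 (1.48 to 2.77) and 1.31 (0.08 to 2.61). In wt 1 cell held 83 of its 102 UMIs. Of the genes induced by interferon gamma Cxcl9, Irf8 and Psme1 were higher in both, 3 of 24, and of the type I interferon genes Ifi204, Ddx58 and Bst2 were, 3 of 17, with Ifih1 lower. In the activin and TGF-beta list, which follows the ligand encoded by Inhba, 0 of 10 genes were 1.5-fold higher in both and 0 lower, and the medians were -0.08 and -0.11. Iron genes gave 0 of 10 either way. Fth1, ferritin heavy chain, stood at 34493 against 29345 CPM in wt and at 34839 against 31184 CPM in the Lcn2-ko-labelled library, with log2 ratios of 0.23 (0.18 to 0.28) and 0.16 (0.10 to 0.22). Arg1, arginase 1, had 37 UMIs in wt Inhba/P4ha1 neutrophils, from 2 cells.

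Between the libraries, 37 of 1225 genes (3.02%) were at least 2-fold higher in Inhba/P4ha1 neutrophils of the Lcn2-ko-labelled library, and 37 (3.02%) at least 2-fold lower. The genes named here are the extremes of these counts, and the intervals take no account of picking extremes. With cells thinned to 800 UMIs 9 genes were higher and 23 lower, of which 5 and 3 were among the 37 on each side. The median-of-ratios scaling, which moved the median log2 ratio of all genes from -0.04 to -0.11, gave 21 and 60.

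Among the higher genes, Zfp36l2, an RNA-binding protein that promotes mRNA decay, had the deepest counts. It stood at 1923 CPM (184 UMIs) in the Lcn2-ko-labelled library and at 746 CPM (143 UMIs) in wt, a log2 ratio of 1.37 (1.04 to 1.69), and 1 cell held 26 of the 184 UMIs. Vmp1, a membrane protein needed for autophagy, stood at 920 and 349 CPM, a log2 ratio of 1.40 (0.92 to 1.88), from 40 and 42 cells. In marker-negative neutrophils the ratios were 0.41 and 0.14. Both genes were thus higher by about the same amount in Inhba/P4ha1 neutrophils, with smaller ratios in marker-negative ones.

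Ano6, a calcium-activated lipid scramblase, had the largest ratio at 2.44 (1.34 to 3.65), from 27 and 10 UMIs. Arl4c, a small GTPase, had 1.83 (1.04 to 2.65) from 39 and 22 UMIs. Tmem164 had 1.79 (0.65 to 3.01), with 11 of 19 UMIs in 1 cell. Lower in rank were Tec, a tyrosine kinase, at 1.47, Klf4, a transcription factor of myeloid cells, at 1.42, Il23a at 1.42, Usp32, a deubiquitinase, at 1.40 and Ubap1, a part of the ESCRT-I complex, at 1.35. Il23a alone of the 10 had a ratio as large in marker-negative neutrophils, 1.62.

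Among the lower genes, Atxn1 had 1 UMI in the Lcn2-ko-labelled library and 34 in wt, a log2 ratio of -4.08 (-9.43 to -1.51), and -1.72 in marker-negative neutrophils. Ddit4, an inhibitor of mTORC1 signalling induced by stress and low oxygen, had 5 and 57 UMIs, 52.3 and 297 CPM, a log2 ratio of -2.51 (-4.18 to -1.20), and -0.84 in marker-negative neutrophils. It kept a ratio between -3.26 and -1.67 over the alternatives that could change it. Hnrnpa1, an RNA-binding protein, had -2.22 (-4.58 to -0.52) and S100a4, a calcium-binding protein, -1.97 (-3.35 to -0.83). For S100a4 1 wt cell held 15 of 55 UMIs, and the ratio was 0.18 in cells with at least 2 selecting UMIs. Rtp4, an interferon-induced gene, had -1.95 (-3.91 to -0.45), R3hdm4 -1.88, Kdm7a, a histone demethylase, -1.80, Tnfaip6, a hyaluronan-binding protein, -1.70 (-2.82 to -0.73) and Zfp703 -1.68. Fabp5 stood at 167 and 532 CPM, a log2 ratio of -1.67 (-2.53 to -0.90). Without the cell with the most UMIs it was 0.21, so that its direction rested on 1 wt cell.

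**Figure D5:**
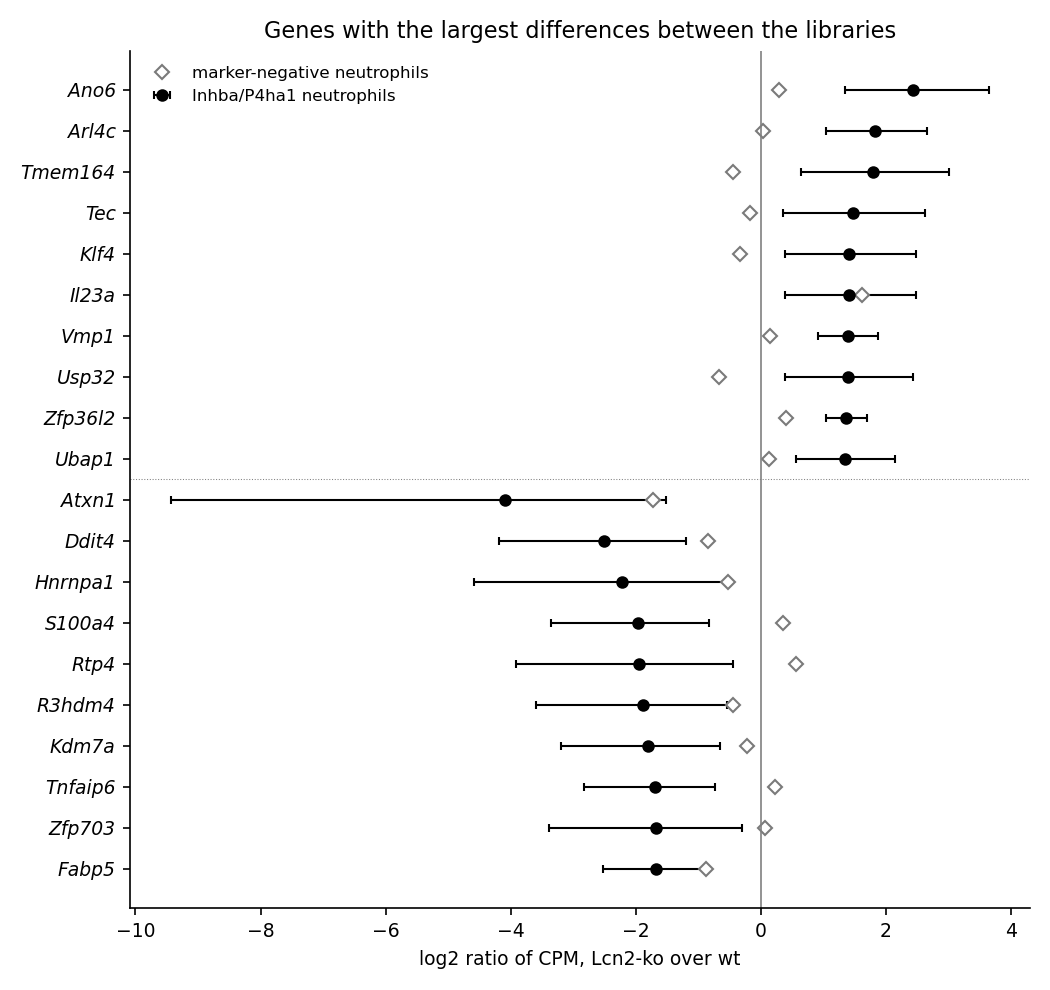
Filled points give the log2 ratio of CPM in the Lcn2-ko-labelled library over wt in Inhba/P4ha1 neutrophils for the 10 highest and 10 lowest genes, with exact conditional 95% intervals (counting error only), and open diamonds the same ratio in marker-negative neutrophils. Il23a at 1.42 and 1.62 is close in both populations, whereas Rtp4 lies at -1.95 in Inhba/P4ha1 neutrophils and at 0.56 in marker-negative ones.

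In Inhba/P4ha1 neutrophils the low-oxygen, tumour neutrophil, circulating neutrophil and lysosomal lists differed little between the libraries. Of 33 low-oxygen and glycolysis genes 2 were at least 1.5-fold higher in the Lcn2-ko-labelled library and 3 lower, where 22.4% of 4385 genes measured were higher and 24.6% lower. The median log2 ratio was 0.00, beside -0.04 over all genes, and lay between -0.22 and 0.00 over the alternatives. Hilpda had a ratio of 0.10 (-0.10 to 0.30), Slc2a1 -0.38 (-0.72 to -0.05) and Bnip3 -0.54 (-1.11 to -0.01). Of 23 tumour neutrophil genes 0 were higher and 3 lower, and of 27 circulating neutrophil genes 5 were higher and 4 lower, with medians of 0.05 and 0.04. Spp1 had 0.56 (0.21 to 0.90), and 0.93 in marker-negative neutrophils. Of 34 lysosomal genes 3 were higher and 2 lower, with a median of 0.20, led in level by Ctsb at 1913 and 1414 CPM.

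Type I interferon genes had the lowest median among the lists with at least 15 genes measured, -0.37, with 0 of 19 higher and 5 lower. Over all genes 22.4% were higher and 24.6% lower, so the share lower was near the background. Isg15, a ubiquitin-like protein, stood at 282 and 480 CPM, a log2 ratio of -0.77 (-1.44 to -0.13), and Slfn4 at 1599 and 2071 CPM, a ratio of -0.37. The list's median lay between -0.43 and 0.05 over the alternatives. Of 27 inflammatory genes 3 were higher and 1 lower, with Cxcl2 at 38257 and 38447 CPM, a log2 ratio of -0.01. Antioxidant genes had 1 of 15 higher and 3 lower, iron genes 0 of 12 higher and 2 lower, and activin and TGF-beta genes 2 of 13 higher and 3 lower.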

How the data were processed

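Per the labels' protocols, live CD45+ cells were captured on the BD Rhapsody system with UMIs and whole-transcriptome libraries. The submitters' processing notes name Cell Ranger and mm10, with no version or role. The authors deposited counts, that is UMIs per gene and barcode without normalisation, for 31253 genes, in 1 matrix per library. Barcodes under 200 genes or over 20% mitochondrial UMIs were dropped, leaving 7712 wt cells and 7547 of the Lcn2-ko-labelled library. No barcode had fewer than 501 UMIs. The threshold chosen by Scrublet (scanpy 1.11.5) marked 0 and 2 cells, so no doublets were removed, and an alternative left out the highest 4% of scores, 3 and 0 of the selected cells.

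For each population, UMIs were added up and scaled to CPM. Intervals are exact Poisson for levels, Clopper-Pearson for shares and conditional binomial for ratios, and a count of 0 was set to 3 counts in a ratio. The steps were tested on simulated counts. Gene lists were measured at 20 CPM. Genes named are the 10 highest and 10 lowest between libraries and the 12 and 12 between populations among genes with at least 50 CPM, 30 UMIs and a UMI in 10 cells, with up to 4 per list (the highest, the lowest and the 2 most abundant). Other genes, such as Fpr1, Cd24a, Ctsz, Tnfaip3, Hif1a and Arg1, were named after their values were seen. Members and lists were chosen with earlier results of these data known. Alternatives covered the selection rule, thinning, scaling, doublets, single top cells and abundance limits; the limits on 10 UMIs for list genes and on MHC class II UMIs were added after seeing the data.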

Additional observations from a re-analysis of the deposited data

Results flagged for a closer look

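Some results went opposite ways in the compared sets of cells; none of these differences was tested. In the Lcn2-ko-labelled library and in wt, the median log2 ratio of Inhba/P4ha1 over marker-negative neutrophils had opposite signs for 4 lists. The median over all genes measured did so too, at 0.10 in wt and -0.11 in the Lcn2-ko-labelled library. The type I interferon list stood at 0.86 in wt and -0.24 in the Lcn2-ko-labelled library, a difference of -1.09, and the lymphocyte list at 1.41 and -0.43, a difference of -1.84. Iron genes stood at 0.21 and -0.15, a difference of -0.36, and genes of endoplasmic reticulum stress at 0.17 and -0.14, a difference of -0.31. In the Lcn2-ko-labelled library both of these lists were near the median over all genes. Under the alternatives the medians in the Lcn2-ko-labelled library reached 0.01 for type I interferon, 0.13 for lymphocyte, 0.18 for iron and 0.19 for endoplasmic reticulum stress genes, so the opposite signs did not hold under each of them. In wt 1 cell held 47 of the 85 UMIs of the lymphocyte list. That list had 9 genes measured in wt and 4 in the Lcn2-ko-labelled library.

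The ratio of the Lcn2-ko-labelled library over wt had opposite signs in Inhba/P4ha1 and marker-negative neutrophils for 7 of the named genes. The former minus the latter was 2.23 for Tmem164, 1.65 for Tec, 1.75 for Klf4 and 2.06 for Usp32. It was -2.32 for S100a4, -2.51 for Rtp4 and -1.93 for Tnfaip6. S100a4 was detected in 6 and 13 Inhba/P4ha1 neutrophils, and Rtp4 in 3 and 22. With at least 2 selecting UMIs the S100a4 ratio was 0.18.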

How the results depend on the processing

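No paired analysis was possible because each genotype label had 1 library, so no replicate could be left out either. The difference in the share of neutrophils lay between -5.13 and 1.98 points over 11 alternatives. Where an alternative changed the selecting genes or their UMI limit, cells that no longer met the rule joined the marker-negative neutrophils. Genes 2-fold higher in the Lcn2-ko-labelled library numbered 37, but 9 after thinning, 21 with median-of-ratios scaling, 20 without each gene's top cell and 15 without cells with MHC class II UMIs, a limit that left 46 and 28 of the selected cells. Genes 2-fold lower numbered 37, but 22 without macrophage-gene cells, 23 after thinning and 60 with median-of-ratios scaling. Genes higher than in marker-negative neutrophils numbered 11, but 6 without macrophage-gene cells, 5 with P4ha1 out of the selection, 7 without the top cell and 5 without MHC class II cells. In the same order, 3, 1, 6 and 1 of these were among the 11. With P4ha1 out that gene was F10, and Hilpda, Bnip3l and Pgam1 were no longer 2-fold higher in both libraries. The 1 gene lower became 6 at 2 selecting UMIs, 4 without macrophage-gene cells, 8 after thinning, 9, 2, 4 and 0 with Inhba, P4ha1, Nos2 and Atp6v0d2 out of the selection, 4 as a mean over cells, 2 with median-of-ratios scaling, 2 without the top cell and 3 without MHC class II cells.

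Directions turned for few named values. At 2 selecting UMIs the wt ratio was -1.03 for Fn1, -0.52 for Cd74, -0.26 for H2-Aa and -0.16 for the dendritic list, and the ratio between libraries was 0.18 for S100a4 and 1.70 for Fabp5. Without macrophage-gene cells Cd74 stood at -0.40 in wt and -0.60 in the Lcn2-ko-labelled library, H2-Ab1 at -0.11 and H2-Aa at -0.80 in wt, and the dendritic list at -0.40. Without MHC class II cells Cd74 stood at -0.31 and -0.62, Fn1 at -0.69 in wt, and Fabp5 at 0.83. With P4ha1 out of the selection Fn1 stood at -1.11 and Fabp5 at 0.63, with Nos2 out the dendritic list stood at -0.26, and without the top cell Fabp5 stood at 0.21. The cause was not tested for those. Of 1149 values of named genes under alternatives 1066 lay within the 95% interval of the reported one. They include the alternatives on the CPM limit and on UMIs of list genes, which return each ratio unchanged. Depth limits the comparison between libraries too, since the selected cells of the Lcn2-ko-labelled library held 95670 UMIs in all.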
